A study of Malus domestica with 18 samples.

Results

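Shoots of the apple cultivar Húsvéti rozmaring grown in vitro were compared after 4 weeks on medium with thidiazuron (TDZ), a synthetic phenylurea cytokinin, and after 4 weeks on medium with no cytokinin. The comparison holds 6 of the 18 RNA-seq libraries of the series, 3 labelled TDZ, 4 week and 3 labelled Control, 4 week, and these are all the libraries of the series with those labels. TDZ was given at 4.5 µM. Both media also held 0.49 µM of the auxin indole-3-butyric acid and 0.58 µM gibberellic acid, and every explant was a 20 mm piece of a shoot that had been precultured without cytokinin. The sampled tissue is labelled axillary shoot. The other libraries of the series, shoots on 6-benzylaminopurine riboside (BAR) at the same dose and all 3 media at 48 hours, with 3 libraries a group, entered the same model and are used below only to set this comparison beside them. The labels call the replicates biological without naming separate vessels or cultures, so the p-values measure only the spread between these libraries.

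Cytokinins are adenine- or urea-type hormones that drive cell division and the outgrowth of shoot buds. Histidine kinase receptors pass a phosphate through phosphotransfer proteins to type-B response regulators, which are transcription factors. Type-A response regulators are among the first genes these switch on, and they feed back to dampen the signal. Cytokinin oxidases/dehydrogenases (CKX) break down adenine-type cytokinins and are themselves induced by cytokinin, whereas TDZ is a poor substrate for them. In apple micropropagation TDZ is known for strong axillary bud proliferation and for short, compact shoots.

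The library labelled TDZ, 4 week, replicate 3 lay with the controls. Its rank correlation over all tested genes was 0.944, 0.946 and 0.947 with control replicates 1, 2 and 3, against 0.807 and 0.803 with TDZ replicates 1 and 2, which correlated with each other at 0.974. Its recorded library name is that of TDZ replicate 1 with the letter b added, and the other groups hold such names as well. Counts of calls are therefore given with all 18 libraries (26053 genes tested) and again without TDZ replicate 3 (17 libraries, 26635 genes tested), and "both fits" below means these. This library was set apart also because it was known to lack the cytokinin response of TDZ replicates 1 and 2. Smaller p-values without it, above all for cytokinin genes, thus follow in part from that choice. Control replicate 1 also stood apart from controls 2 and 3, with 0.0438% of its counts on plastid-encoded genes against 0.409% and 0.34%, and 2.76% on light-harvesting and photosystem genes against 1.03% and 1.06%. The TDZ libraries had 0.0337%, 0.0287% and 0.0235% of their counts on plastid-encoded genes. Library totals of the comparison were 14646040 to 21279097 counts. Photosynthesis genes were abundant in every library, and the root and endodermis list took at most 0.0126% of the counts of any of the 6, although 3 of its 4 tested genes (18 in the table) were higher in TDZ in both fits. Phloem and callose genes took 0.176%, 0.185% and 0.0844% of the counts of TDZ replicates 1, 2 and 3, against 0.0937%, 0.115% and 0.114% in the controls. Of 41 tested, 17 were higher and 5 lower in TDZ with all libraries and 20 and 5 without TDZ replicate 3. SIEVE ELEMENT OCCLUSION B (DVH24_008651), a member named for its small p, was at 53.3, 33.5 and 0.129 CPM in TDZ, against 0.546, 0 and 0 CPM in control. CPM are counts scaled to a common library size by TMM. The most abundant member, PHLOEM PROTEIN 2-LIKE A9 (DVH24_011060), was at 33.2, 89.2 and 109 CPM in TDZ, against 58.4, 67.6 and 60.6 CPM in control. It passed in neither fit (edgeR adjusted p = 0.54 with all libraries and 0.97 without TDZ replicate 3). The part of either list in the results was not tested. In bulk tissue, fewer cells of a type and less RNA per cell cannot be told apart.

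Cytokinin response, cell division and organ growth genes were high in TDZ replicates 1 and 2, and many carbon fixation and heat shock genes were low in all 3 TDZ replicates. With all libraries, 4388 genes were higher in TDZ than in control (16.8% of those tested) and 2532 were lower (9.72%), at an adjusted p under 0.05 in edgeR's quasi-likelihood test. The median change was 7.2-fold for the higher genes and 2.17-fold for the lower ones. Without TDZ replicate 3, 6124 genes were higher (23.0%) and 4770 lower (17.9%), and no gene called in both fits changed sign. Both fits shared 4309 higher and 2365 lower genes. Counts and medians of gene lists without TDZ replicate 3 are over the genes tested in both fits, of which 23.1% were higher and 18.3% lower. Leaving out TDZ replicate 1, TDZ replicate 2, control replicate 2 or control replicate 3 gave 2324 to 2466 higher and 1015 to 1379 lower genes. These calls lean on the spread estimated over all 6 groups: edgeR on the 6 libraries of the comparison alone called 0 genes in either direction, although 3009 higher and 2598 lower ones had an unadjusted p under 0.05. On those 6 libraries DESeq2 called 1952 higher and 1548 lower and limma-voom 0 and 0, and with TDZ replicate 3 left out edgeR on the remaining 5 called 4255 and 3437. TMM scaling, the default, gave TDZ replicates 1, 2 and 3 factors of 1.17, 1.28 and 0.929 and the controls 0.86 to 0.861. Scaling to library totals moved the median log2 fold change of all genes from 0.14 to 0.51, and 84.7% of its calls were higher against 63.4% in the main fit.

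Among the cytokinin receptors, 2 genes named histidine kinase 4 by their best protein match were higher in TDZ than in control. DVH24_040279 was at 61.4, 55.6 and 1.35 CPM in TDZ replicates 1, 2 and 3, against 0.437, 0 and 0.556 CPM in controls 1, 2 and 3. DVH24_007629 was at 106, 81.2 and 0.193 CPM in the TDZ libraries, against 0, 0.667 and 0.477 CPM in the controls. TDZ replicates 1 and 2 were far above every control in both genes, and replicate 3 was near the control level. The log2 fold changes were 6.91 (SE 1.1, adjusted p = 0.002) and 7.38 (SE 1.32, adjusted p = 0.0027) with all libraries. DVH24_015255, a phosphotransfer protein that relays the receptor signal, was at 211, 194 and 3.28 CPM in TDZ, against 4.75, 1.58 and 2.23 CPM in control. Of 26 tested receptors, phosphotransfer proteins and type-B regulators, 6 were higher and 2 lower with all libraries and 7 and 4 without TDZ replicate 3, with medians of 0.20 and 0.38 against 0.14 and 0.07 over the genes tested in both fits, so most of this list did not pass. At 48 hours DVH24_040279 averaged 62.9 CPM on TDZ and 18.9 CPM on control, and DVH24_007629 79.3 and 36.2 CPM.

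The type-A response regulators moved as a block: 9 of the 10 tested (12 are in the table) were higher in both fits and none was lower. ARR6 (DVH24_008781) was at 135, 114 and 1.03 CPM in TDZ replicates 1, 2 and 3, against 0.382, 0.182 and 1.11 CPM in the controls. ARR3 (DVH24_040788) was at 106, 73.5 and 1.61 CPM in TDZ, against 2.24, 0.727 and 0.954 CPM in control. A second ARR3 match (DVH24_007079) was at 136, 85.4 and 5.54 CPM in TDZ, against 7.26, 5.7 and 2.78 CPM in control. In all 3 genes replicates 1 and 2 were above every control and replicate 3 lay inside the control range. ARR9 (DVH24_019719) was at 35.2, 43.9 and 0.644 CPM in TDZ, against 0.928, 0.606 and 0 CPM in control. One ORR4 match (DVH24_042790) had no count in any control and 14.3, 18 and 0 CPM in TDZ, which is at least 170-fold higher in the TDZ mean when 3 counts over the control group are taken as the floor. ORR9 (DVH24_015948) was the member that did not pass, at 11.4, 10.5 and 4.44 CPM in TDZ, against 11.6, 4 and 4.45 CPM in control. The log2 fold change was 7.29 for ARR6 (SE 1.16, adjusted p = 0.002) with all libraries and 7.88 (SE 0.43, adjusted p = 4.3e-09) without TDZ replicate 3. The smaller p follows in part from leaving out the library that lacked this response. The list median was 4.67 with all libraries and 5.22 without TDZ replicate 3, or 4.21 and 4.77 with the 2 genes at 0 in control set to their bound. limma-voom on all libraries called none of the 10, where the all-library median was 3.88.

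**Figure D1:**
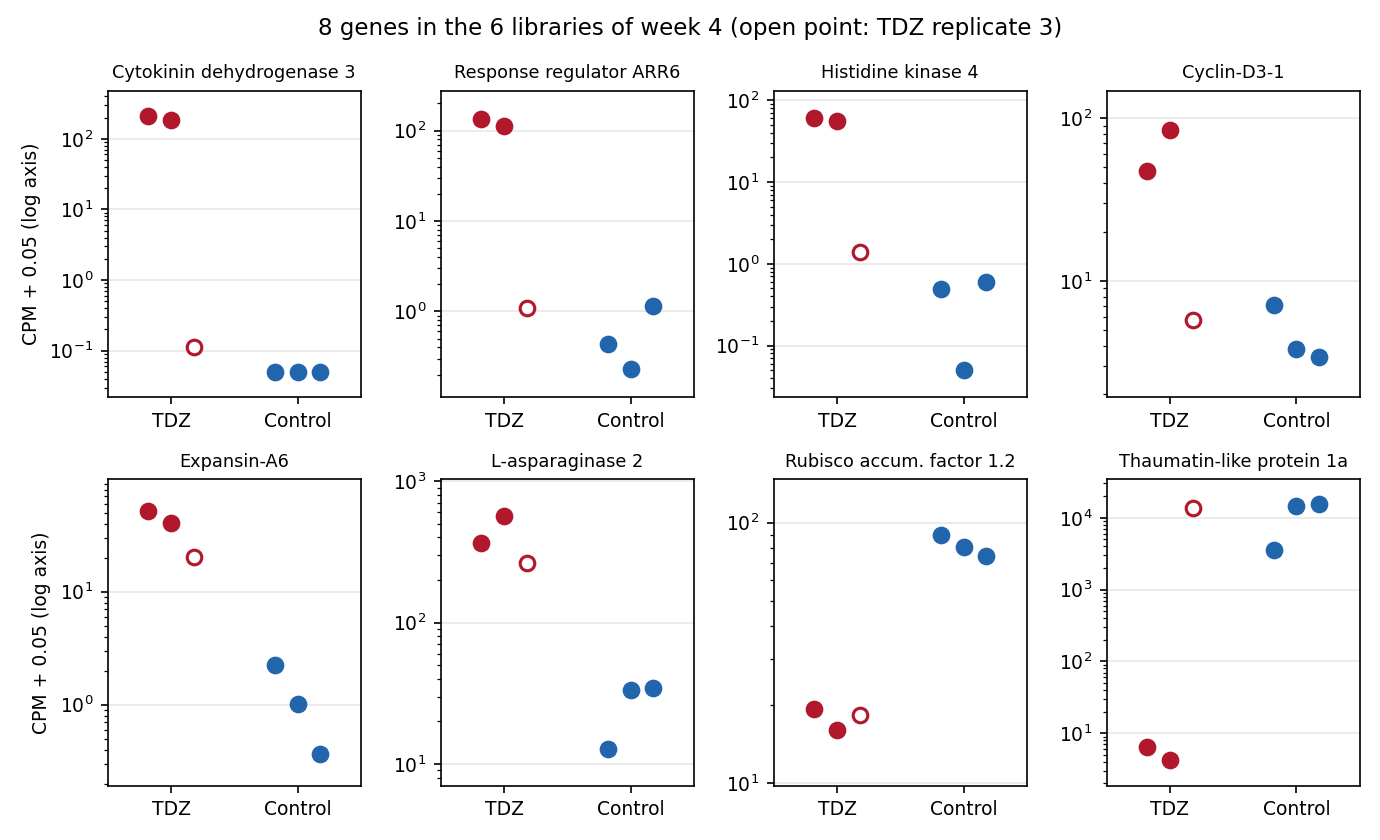
Levels of 8 genes in the 6 libraries of week 4, in CPM plus 0.05 on a log axis, with TDZ in red on the left and control in blue on the right; each point is 1 library and the open point is TDZ replicate 3. In the cytokinin genes and Cyclin-D3-1 the open point sits near the controls, in Expansin-A6, L-asparaginase 2 and Rubisco accumulation factor 1.2 it sits on the TDZ side, and in thaumatin-like protein 1a replicates 1 and 2 alone are low.

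The cytokinin oxidases split by gene. CKX3 (DVH24_029452) was at 212, 182 and 0.0644 CPM in TDZ replicates 1, 2 and 3 and had no count in any control, at least 2074-fold higher in the TDZ mean. A CKX5 match (DVH24_012939) was at 20.6, 11 and 0.258 CPM in TDZ, against 0, 0.303 and 0.238 CPM in control (log2 fold change 5.9, SE 1.12, adjusted p = 0.0032). A CKX7 match (DVH24_020512) went the other way, at 30.2, 26.1 and 31.7 CPM in TDZ, against 87.4, 60.6 and 49 CPM in control (log2 fold change -1.16, SE 0.29, adjusted p = 0.01). All 3 TDZ libraries, replicate 3 included, were below all 3 controls in CKX7. A second CKX7 match (DVH24_012708) had 12, 9.16 and 24.5 CPM in TDZ, against 33.6, 41.1 and 42.8 CPM in control, and passed only without TDZ replicate 3 (adjusted p = 0.014, against 0.069 with all libraries). Of 9 tested oxidases, 3 were higher and 1 lower with all libraries and 4 and 2 without TDZ replicate 3. Of 18 genes of cytokinin synthesis and conjugation, 4 were higher and none lower with all libraries and 5 and 2 without TDZ replicate 3. They included a LOG-type enzyme (DVH24_005890), which frees active cytokinin from its nucleotide, at 8.05, 7.23 and 0.837 CPM in TDZ and 0, 1.21 and 1.11 CPM in control.

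Many cell division genes were higher in TDZ replicates 1 and 2 than in the 4 week controls. Of 56 mitotic cyclins, kinases and kinesins, 41 were higher and none lower with all libraries, and 48 and 1 without TDZ replicate 3. The per-library median of the list relative to the control mean was 2.72, 2.67 and -0.08 on the log2 scale in TDZ replicates 1, 2 and 3. Of 6 tested D3-type cyclins, which carry cytokinin's signal into the cell cycle in Arabidopsis, 4 were higher with all libraries and 5 without TDZ replicate 3. Cyclin-D3-1 (DVH24_021694) was at 47.2, 84.1 and 5.67 CPM in TDZ, against 7.09, 3.76 and 3.34 CPM in control (log2 fold change 3.26, SE 0.62, adjusted p = 0.0032). A Cyclin-D3-3 match (DVH24_020669) was at 59.4, 46.8 and 2.25 CPM in TDZ, against 4.58, 1.7 and 1.99 CPM in control. The most abundant D3 cyclin (DVH24_026256) differed less, at 46.2, 58.5 and 33.7 CPM in TDZ and 40.2, 30.7 and 35.2 CPM in control, and passed only without TDZ replicate 3 (adjusted p = 0.048). At 48 hours Cyclin-D3-1 averaged 201 CPM on TDZ and 76.1 CPM on control.

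The mitotic kinesin KIN-5D (DVH24_006037), which pushes spindle poles apart, was at 65.1, 67 and 14.4 CPM in TDZ, against 10.9, 5.52 and 4.85 CPM in control. Here replicate 3 was above every control as well, though well under replicates 1 and 2 (log2 fold change 2.78, SE 0.5, adjusted p = 0.0028). Of 49 histone genes 21 were higher with all libraries and 31 without TDZ replicate 3, and 0 and 1 were lower. Histone H4 (DVH24_032814) was at 33.9, 43.9 and 5.22 CPM in TDZ, against 2.95, 4.91 and 3.26 CPM in control. Of 72 DNA replication genes, 25 were higher and 3 lower with all libraries and 30 and 4 without TDZ replicate 3. MCM2 (DVH24_041154), a subunit of the replicative helicase, was at 13.4, 19.9 and 0.386 CPM in TDZ and 0.6, 0.303 and 0.318 CPM in control. Of 34 tubulins and actins 12 were higher and 2 lower, and 16 and 4 without TDZ replicate 3.

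Regulators of the shoot meristem and of organ growth followed the same division between libraries. Of 76 tested, 44 were higher and 3 lower with all libraries (median 2.77), and 53 and 9 without TDZ replicate 3 (median 3.27). Growth-regulating factor 6 (DVH24_012590), of a family that promotes leaf cell proliferation, was at 40.3, 44.8 and 0.451 CPM in TDZ, against 0, 0.303 and 0 CPM in control. Growth-regulating factor 9 (DVH24_026050) was at 7.19, 9.54 and 1.42 CPM in TDZ, against 0.546, 0.121 and 0.0795 CPM in control (log2 fold change 4.5, SE 0.76, adjusted p = 0.0024). The knotted-like gene KNAT1-like 1 (DVH24_020542), of the class that keeps meristem cells undifferentiated, had no count in control and 10.5, 21.2 and 0.0644 CPM in TDZ, at least 167-fold higher. Of 43 TCP and strigolactone genes of shoot branching, 8 were higher and 3 lower, and 17 and 6 without TDZ replicate 3. SMAX1-LIKE 3 (DVH24_034842), of the family whose relatives strigolactone signalling removes, was at 21.2, 19 and 2.06 CPM in TDZ, against 1.26, 1.21 and 0.954 CPM in control. TCP2 (DVH24_011267), a CIN-type TCP factor of leaf growth, was at 96, 81.7 and 102 CPM in TDZ, against 151, 211 and 269 CPM in control, with every TDZ library below every control (log2 fold change -1.17, SE 0.27, adjusted p = 0.0065).

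**Figure D2:**
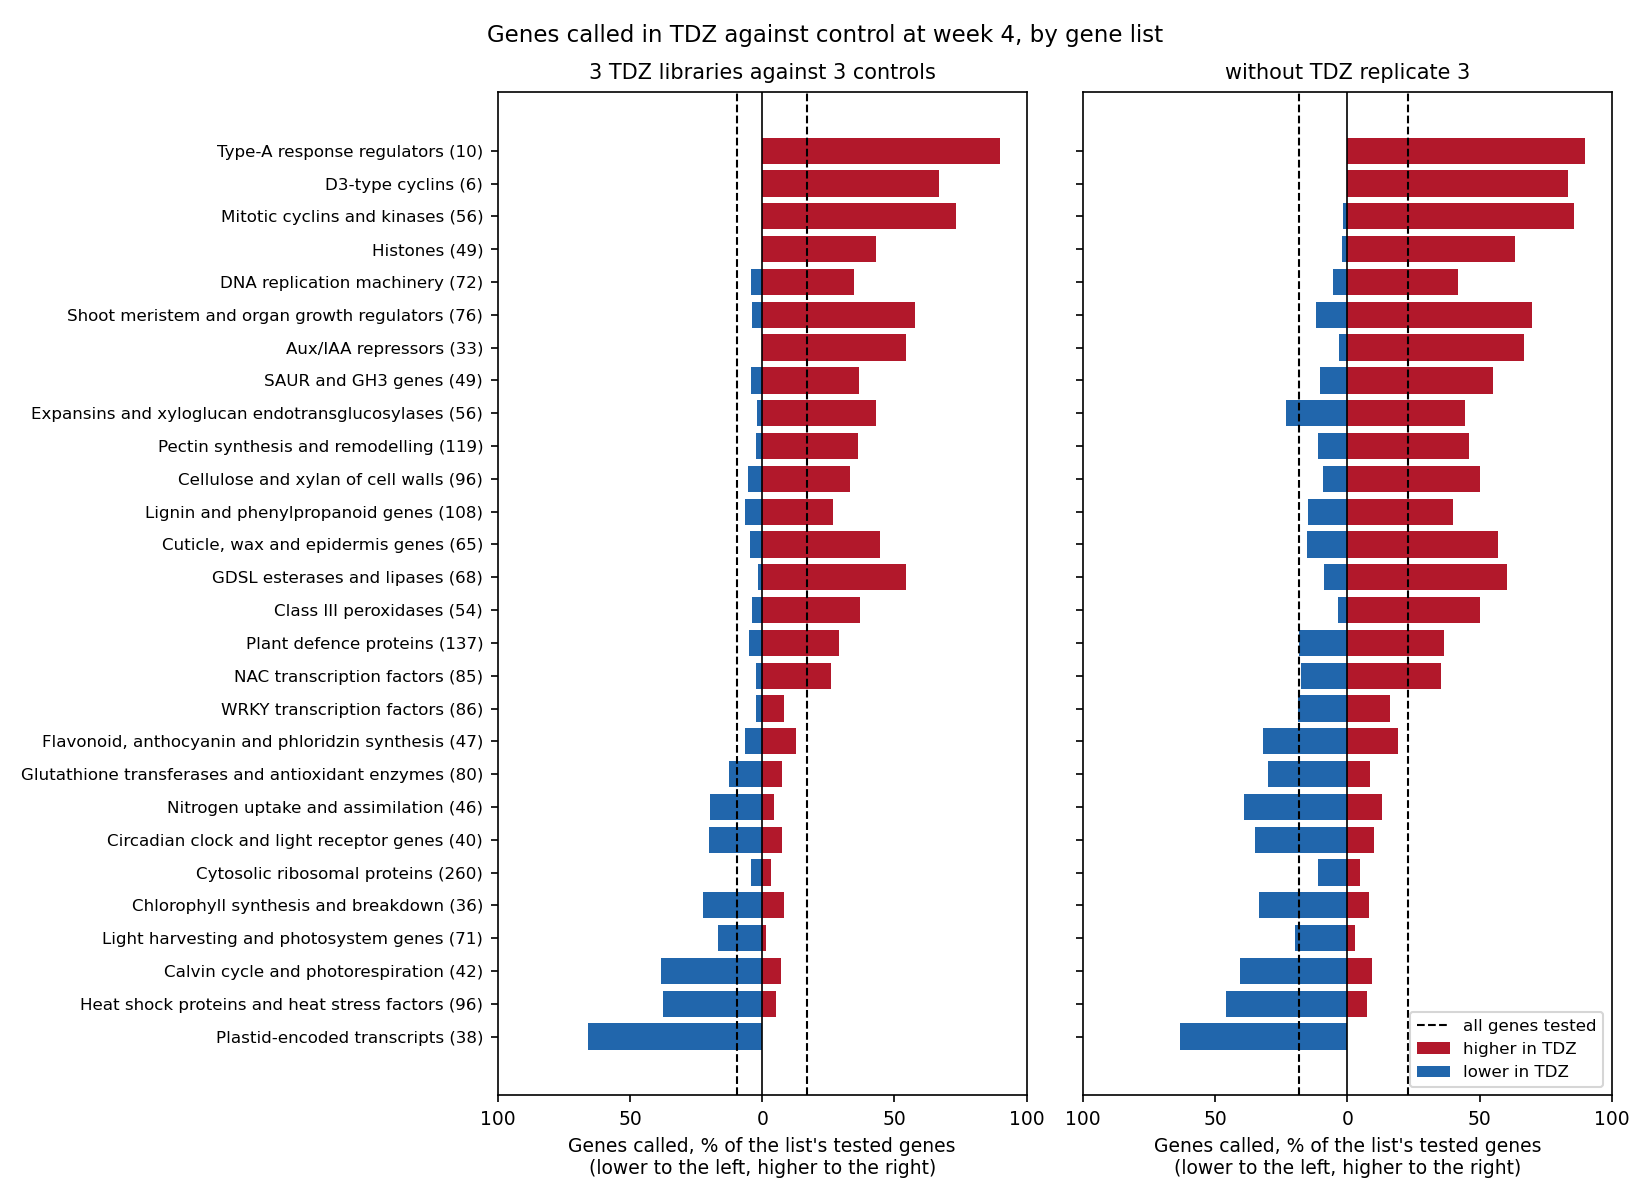
Share of the tested genes of selected gene lists called higher (red, to the right) or lower (blue, to the left) in TDZ than in control at week 4, with all libraries on the left and without TDZ replicate 3 on the right; dashed lines give the shares over the genes tested in both fits, and numbers of tested genes stand in brackets. Of the lists drawn, type-A regulators, mitotic genes and D3 cyclins reach furthest to the right, plastid-encoded, Calvin cycle and heat shock genes furthest to the left, in both panels.

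Of 33 Aux/IAA genes, the auxin-induced repressors of auxin signalling, 18 were higher and none lower with all libraries, and 22 and 1 without TDZ replicate 3. IAA9 (DVH24_014527) was at 122, 116 and 73.4 CPM in TDZ, against 66.9, 42.4 and 32.8 CPM in control, so that every TDZ library was above every control (log2 fold change 1.13, SE 0.25, adjusted p = 0.0054). IAA16 (DVH24_015344) was at 241, 172 and 79 CPM in TDZ, against 79.8, 69.9 and 65.9 CPM in control, with replicate 3 inside the control range. Auxin efflux carriers, which set the direction of auxin flow, differed in sign. PIN1a (DVH24_009140) was at 24.7, 30.8 and 0.258 CPM in TDZ, against 0.218, 0 and 0 CPM in control. PIN3 (DVH24_007531) was at 20, 13.4 and 19.1 CPM in TDZ, against 39.2, 62.2 and 80.2 CPM in control, below every control in all 3 TDZ libraries (log2 fold change -1.79, SE 0.28, adjusted p = 0.0018). PIN-LIKES 2 (DVH24_040372), which is not one of the PIN efflux carriers, was also lower. It was at 70.7, 85.6 and 174 CPM in TDZ, against 404, 357 and 319 CPM in control. Among 49 SAUR and GH3 genes, 18 were higher and 2 lower, and 27 and 5 without TDZ replicate 3.

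Gibberellin genes included a gibberellin 2-beta-dioxygenase (DVH24_017479), an enzyme that inactivates gibberellins, at 40.4, 8.36 and 1.67 CPM in TDZ, against 0.164, 0 and 0 CPM in control. The receptor GID1B (DVH24_027175) was at 80.8, 74.4 and 285 CPM in TDZ, against 478, 505 and 565 CPM in control (log2 fold change -1.81, SE 0.45, adjusted p = 0.0092). Replicate 3 was again below every control in GID1B but closer to them than replicates 1 and 2. Of the 45 gibberellin genes 10 were higher and 2 lower with all libraries, and 14 and 4 without TDZ replicate 3. The abscisic acid list had 11 higher and 7 lower of 47, and 15 and 12 without TDZ replicate 3. One of its lower members, a protein phosphatase 2C 37 match (DVH24_024182) of the family that restrains abscisic acid signalling, was at 43.3, 46.4 and 66.9 CPM in TDZ, against 151, 189 and 188 CPM in control. Of 97 ethylene genes 14 were higher (14.4%) and 7 lower (7.22%), near the 16.8% and 9.72% of all genes tested. Without TDZ replicate 3 they were 24 (24.7%) and 15 (15.5%), near the 23.1% and 18.3% of all genes. ERF003 (DVH24_020428) was at 19.6, 26.5 and 23.5 CPM in TDZ, against 6.71, 2.12 and 1.99 CPM in control, while ETHYLENE INSENSITIVE 3 (DVH24_013557), the central transcription factor of the pathway, was at 108, 119 and 139 CPM in TDZ, against 189, 214 and 216 CPM in control. Both separated all 3 TDZ libraries from all 3 controls. Of 65 brassinosteroid genes 18 were higher and 7 lower, and 25 and 10 without TDZ replicate 3. Of 53 jasmonate genes 7 were higher and 7 lower (13.2% each), and 15 (28.3%) and 14 (26.4%) without TDZ replicate 3. The most abundant jasmonate gene, a lipoxygenase 2-1 match of the chloroplast (DVH24_016189), was at 1173, 927 and 1394 CPM in TDZ, against 4175, 3213 and 3382 CPM in control (log2 fold change -1.62, SE 0.35, adjusted p = 0.0048).

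Many genes of the cell wall and cuticle were higher. Of 119 pectin genes 43 were higher and 3 lower with all libraries, of 96 cellulose and xylan genes 32 and 5, of 56 expansins and xyloglucan enzymes 24 and 1, of 68 GDSL lipases 37 and 1 and of 65 cuticle, wax and epidermis genes 29 and 3. Without TDZ replicate 3 these counts were 55 and 13, 48 and 9, 25 and 13, 41 and 6, and 37 and 10. Expansin-A6 (DVH24_038635), a protein that loosens growing walls, was at 51.6, 40.2 and 20.3 CPM in TDZ, against 2.18, 0.97 and 0.318 CPM in control (log2 fold change 4.96, SE 0.55, adjusted p = 0.0009). Expansin-A8 (DVH24_022849) was at 244, 149 and 45.7 CPM in TDZ, against 13.9, 11.2 and 8.74 CPM in control, and Endoglucanase 6 (DVH24_008231) at 133, 132 and 17.2 CPM in TDZ, against 2.73, 1.52 and 2.54 CPM in control. In these 3 genes replicate 3 was above all controls although under replicates 1 and 2. The lipase LTL1 (DVH24_036863) had no count in control and 159, 151 and 0.322 CPM in TDZ, at least 1635-fold higher. Non-specific lipid-transfer protein 3 (DVH24_014917) also had no count in control, with 132, 192 and 0 CPM in TDZ, at least 1705-fold higher. At 48 hours LTL1 was at 196, 165 and 181 CPM on TDZ and 313, 254 and 202 CPM on control, and lipid-transfer protein 3 at 31.3, 113 and 41.8 CPM on TDZ and 65, 96.8 and 100 CPM on control, so both were detected in every 48 hour library of these media. A xylan glucuronosyltransferase IRX7 match (DVH24_005843), by contrast, was lower, at 20.8, 19.4 and 96.5 CPM in TDZ, against 65.3, 833 and 855 CPM in control, where control replicate 1 was far under the other controls.

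Specialised metabolism gave a mixed picture. Of 108 lignin and phenylpropanoid genes 29 were higher and 7 lower, and 43 and 16 without TDZ replicate 3. The most abundant of them, a shikimate hydroxycinnamoyltransferase match (DVH24_031157), was at 20.1, 1.6 and 1407 CPM in TDZ, against 557, 1279 and 1373 CPM in control, and was called lower only without TDZ replicate 3 (log2 fold change -6.63, SE 1.32, adjusted p = 0.0008). Of 47 flavonoid genes 6 were higher and 3 lower with all libraries but 9 and 15 without TDZ replicate 3, and the list median was -0.33 but 0.06 under library-total scaling. Anthocyanidin reductase (DVH24_017075), which makes epicatechin units of tannins, was at 75.8, 72.7 and 139 CPM in TDZ, against 478, 344 and 350 CPM in control, and was called lower in both fits. Chalcone isomerase (DVH24_023178), an earlier step, was at 38.5, 20.8 and 8.95 CPM in TDZ, against 6.66, 3.33 and 4.85 CPM in control, and was called higher in both fits. Of 37 terpene genes 12 were higher and none lower with all libraries, and 16 and 1 without TDZ replicate 3. Beta-amyrin synthase (DVH24_027664), which makes a triterpene backbone, was at 387, 228 and 278 CPM in TDZ, against 165, 96.7 and 103 CPM in control. Of 54 class III peroxidases 20 were higher and 2 lower, and 27 and 2 without TDZ replicate 3. The most abundant was Peroxidase 42 (DVH24_011719) at 1333, 939 and 34.4 CPM in TDZ and 106, 42.5 and 46 CPM in control.

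More heat shock genes were lower than higher in TDZ. Of 96 tested heat shock proteins and heat stress factors, 36 were lower and 5 higher with all libraries (median -0.80), and 44 and 7 without TDZ replicate 3 (median -1.20), and the median stayed negative under RLE and library-total scaling, at -0.81 and -0.45. In 31 of the 96, all 3 TDZ libraries were below all 3 controls (12.2% of all genes tested). The chloroplast chaperone ClpB3 (DVH24_031994), which dissolves protein aggregates, was at 29.3, 27.5 and 75.9 CPM in TDZ, against 282, 201 and 220 CPM in control (log2 fold change -2.41, SE 0.32, adjusted p = 0.0017). The stromal HSP70 (DVH24_016313) was at 150, 164 and 279 CPM in TDZ, against 580, 615 and 543 CPM in control. The most abundant member, a heat shock 70 kDa protein 2 match (DVH24_026791), was at 114, 175 and 134 CPM in TDZ, against 150, 721 and 765 CPM in control, where control replicate 1 lay among the TDZ values. Without control replicate 1, 45 of 99 tested heat shock genes were lower and 7 higher. Without TDZ replicate 1, 18 of 98 were lower and 2 higher, and without TDZ replicate 2, 17 of 99 and 4. Of 80 glutathione transferases and antioxidant enzymes, 6 were higher and 10 lower, and 7 and 24 without TDZ replicate 3. Peroxiredoxin-2E (DVH24_035009) was at 21.9, 17.3 and 46.9 CPM in TDZ, against 122, 113 and 137 CPM in control.

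**Figure D3:**
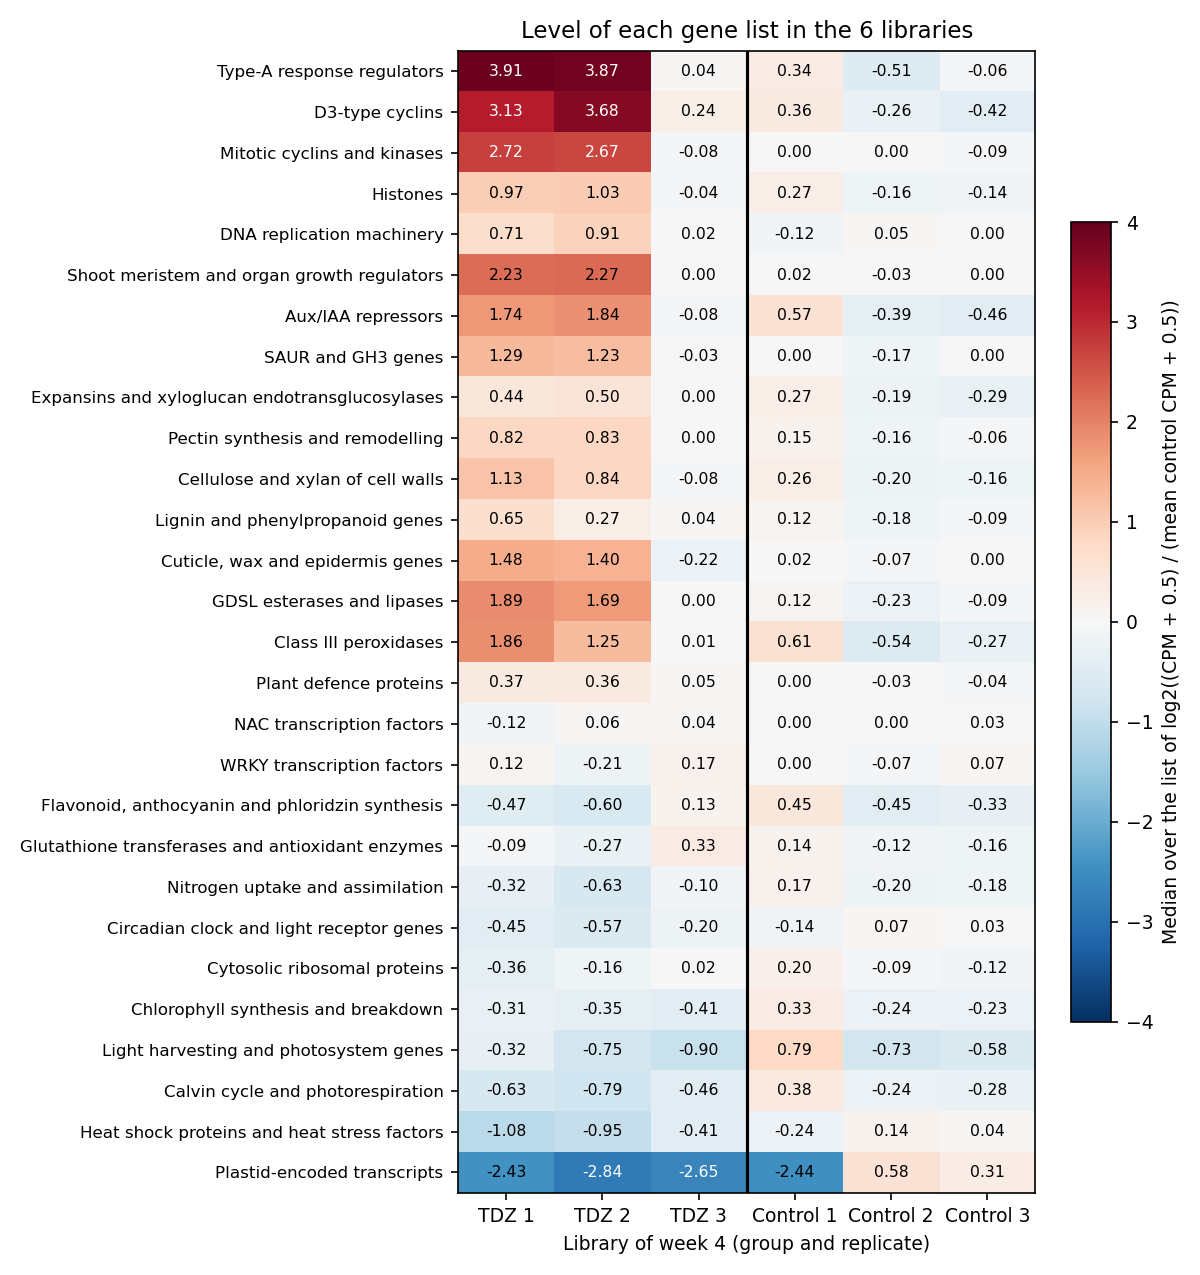
Median over each gene list of the log2 ratio of a library's level to the control mean, with 0.5 CPM added to both, for the 3 TDZ libraries left of the line and the 3 controls right of it. The lists at the top are high in TDZ replicates 1 and 2 and near 0 in replicate 3 and the controls, whereas heat shock and Calvin cycle genes are below 0 in all 3 TDZ libraries and plastid-encoded genes are low in control replicate 1 too.

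Among nuclear genes of photosynthetic carbon fixation more were lower than higher. Of 42 Calvin cycle and photorespiration genes, 16 were lower and 3 higher with all libraries (median -0.63), and 17 and 4 without TDZ replicate 3 (median -0.79). In 20 of the 42 all 3 TDZ libraries were below all 3 controls, which held for 12.2% of all genes tested. Rubisco accumulation factor 1.2 (DVH24_015392), an assembly chaperone of the carbon-fixing enzyme, was at 19.1, 15.9 and 18.1 CPM in TDZ, against 90, 80.4 and 74.3 CPM in control, and averaged 17.7 ± 1.66 CPM in TDZ and 81.6 ± 7.93 CPM in control (SD, n = 3 each). Its log2 fold change was -2.2 (SE 0.24, adjusted p = 0.0009) with all libraries and -2.22 (SE 0.28, adjusted p = 1.2e-05) without TDZ replicate 3. Rubisco accumulation factor 1.1 (DVH24_036810) was at 17.6, 16.4 and 19.6 CPM in TDZ, against 63.1, 52.2 and 51.3 CPM in control. The most abundant member, a Rubisco small subunit (DVH24_031002), was at 2195, 1828 and 2402 CPM in TDZ, against 8690, 4033 and 4440 CPM in control (log2 fold change -1.42, SE 0.41, adjusted p = 0.02). Replicate 3 lay among replicates 1 and 2 or next to them in all 3 genes. Without control replicate 1, 9 of the 42 were lower and 4 higher, and without TDZ replicate 1 or TDZ replicate 2, 6 were lower and 2 higher. Under library-total scaling 10 were lower and 6 higher (median -0.26), and 9 and 7 without TDZ replicate 3 (median -0.29).

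Light-harvesting and photosystem genes depended more on the controls. Of 71 tested, 12 were lower and 1 higher with all libraries and 14 and 2 without TDZ replicate 3, but 4 and 3 without control replicate 1, where the list median was -0.04 in place of -0.64. With limma quality weights the median was 0.10. The per-library medians show it, at -0.32, -0.75 and -0.90 in TDZ replicates 1, 2 and 3, against 0.79, -0.73 and -0.58 in control replicates 1, 2 and 3. Chlorophyll a-b binding protein CP29.1 (DVH24_014733), an inner antenna of photosystem II, was at 346, 197 and 310 CPM in TDZ, against 1421, 591 and 638 CPM in control, still below every control. Of 36 chlorophyll genes 8 were lower and 3 higher, and 12 and 3 without TDZ replicate 3, and the median was -0.34 but 0.04 under library-total scaling and 0.05 without control replicate 1. The chelatase subunit ChlH (DVH24_019591), which inserts magnesium into the chlorophyll ring, was at 98.2, 78.3 and 80 CPM in TDZ, against 267, 182 and 191 CPM in control (log2 fold change -1.32, SE 0.25, adjusted p = 0.003).

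Plastid-encoded transcripts were lower in 25 of 38 tested genes and higher in none with all libraries, and in 24 and none without TDZ replicate 3, with medians of -4.59 and -4.28. The size of this contrast came mainly from control replicates 2 and 3: the list's per-library medians were -2.43, -2.84 and -2.65 in TDZ and -2.44, 0.58 and 0.31 in control. Still, in 18 of the 38 all 3 TDZ libraries were below all 3 controls (12.2% of all genes tested). The list's summed level was 287, 225 and 253 CPM in TDZ, against 508, 4759 and 3952 CPM in control. The photosystem II D2 protein (DVH24_034793) was at 18.3, 6.51 and 18.7 CPM in TDZ, against 39.9, 1970 and 1590 CPM in control, and at 15.5, 16 and 13.2 CPM in BAR shoots. ATP synthase subunit beta (DVH24_034244) was at 2.53, 1.68 and 3.93 CPM in TDZ, against 14.2, 261 and 257 CPM in control. Messenger RNA was purified with poly-T beads, and plastid transcripts mostly lack long poly-A tails. Whether capture of such transcripts differed between libraries was not tested. A polyubiquitin gene (DVH24_004236) had the same unevenness among controls, at 0.0452, 0.042 and 1.03 CPM in TDZ and 0, 69.8 and 69.1 CPM in control.

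Among genes called lower with all 3 TDZ libraries below all 3 controls (1988 genes, 7.63% of those tested), those of smallest p included 30S ribosomal protein S5 of the chloroplast (DVH24_017244), at 42.6, 34.1 and 52.9 CPM in TDZ, against 203, 145 and 142 CPM in control. Carbamoyl-phosphate synthase (DVH24_005983), which feeds pyrimidine and arginine synthesis, averaged 67.3 ± 8.16 CPM in TDZ and 208 ± 14.6 CPM in control (SD, n = 3 each). The plastid pyruvate dehydrogenase subunit (DVH24_005394), which supplies fatty acid synthesis, averaged 93.6 ± 9.08 CPM in TDZ and 297 ± 37.6 CPM in control (SD, n = 3 each). Vesicle-associated protein 4-1 (DVH24_003542) was at 30.6, 31.8 and 38.4 CPM in TDZ, against 75.5, 152 and 149 CPM in control. A further 1947 genes (7.47%) were called higher with all 3 TDZ libraries above all 3 controls. The asparaginase match DVH24_012497, an enzyme that breaks down asparagine, was one of them, at 362, 570 and 265 CPM in TDZ, against 12.7, 33.3 and 34.3 CPM in control (log2 fold change 3.9, SE 0.52, adjusted p = 0.0017).

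Nitrogen and sugar genes showed how far TDZ replicate 3 could differ from replicates 1 and 2. Asparagine synthetase (DVH24_038453), which stores nitrogen as asparagine, was at 181, 149 and 3104 CPM in TDZ, against 4988, 5367 and 5308 CPM in control, so replicate 3 was below all controls but much nearer to them. It was called lower without TDZ replicate 3 (log2 fold change -4.99, SE 0.7, adjusted p = 4e-05) and not with it (adjusted p = 0.085). Sorbitol-6-phosphate dehydrogenase (DVH24_002547), the key enzyme of sorbitol synthesis in apple leaves, was at 228, 381 and 3816 CPM in TDZ, against 2434, 2155 and 2129 CPM in control, and replicate 3 was the highest of the 6 (adjusted p = 0.00069 without TDZ replicate 3 and 0.6 with it). Thaumatin-like protein 1a (DVH24_035284), a pathogenesis-related protein and apple allergen, was at 6.33, 4.16 and 13544 CPM in TDZ, against 3536, 14640 and 15331 CPM in control. Without TDZ replicate 3 its log2 fold change was -11.06 (SE 2.16, adjusted p = 0.00071), and with it the adjusted p was 0.66. NADH-dependent glutamate synthase (DVH24_022418) passed in both fits, at 239, 186 and 566 CPM in TDZ, against 1164, 1056 and 958 CPM in control. Of 46 nitrogen genes 2 were higher and 9 lower, and 6 and 18 without TDZ replicate 3, and of 137 defence protein genes 40 were higher and 7 lower, and 50 and 25 without TDZ replicate 3.

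The place of TDZ replicate 3 between the groups was measured for every gene called without it. Of 6031 genes higher in TDZ replicates 1 and 2 and tested in both fits, replicate 3 was above all controls in 35.5%, within their range in 54.5% and below them in the remaining 603 genes. Of 4757 lower genes, replicate 3 was below all controls in 46.1%, within their range in 39.4% and above them in 14.6%. On a scale where 0 is the control mean and 1 the mean of replicates 1 and 2, its median position was 0.08 for the higher genes and 0.24 for the lower ones. It reached the level of replicates 1 and 2 in 4.94% of the higher and 9.44% of the lower genes. The same controls enter the choice of genes and the scale, so these shares are descriptive.

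**Figure D4:**
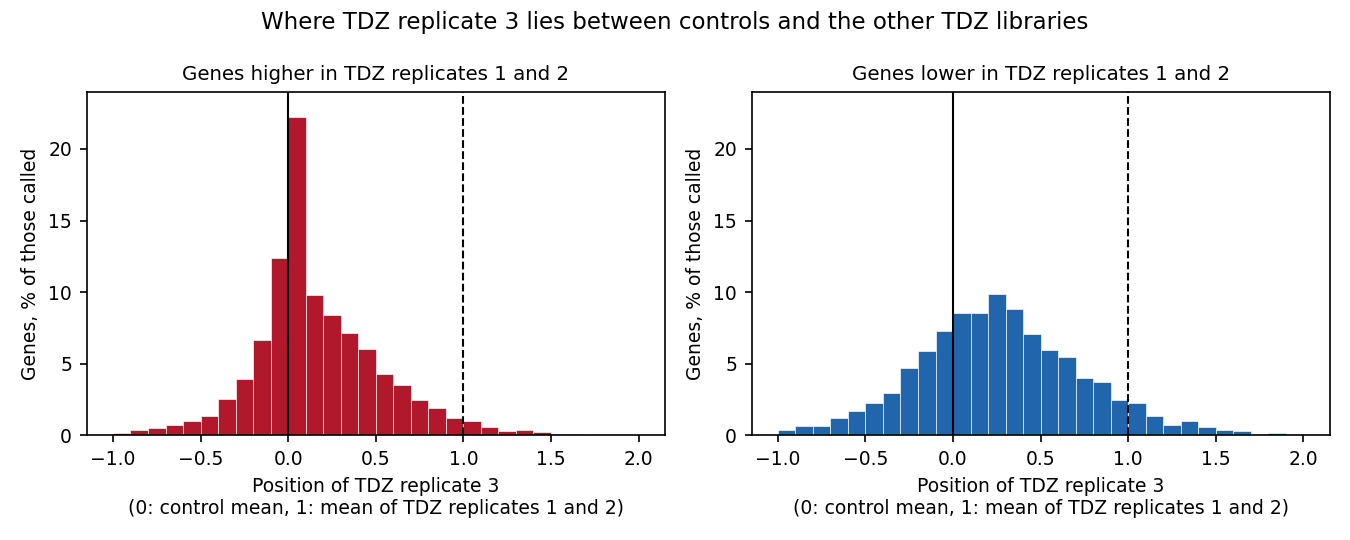
Position of TDZ replicate 3 on a log2 scale where 0 is the control mean (solid line) and 1 the mean of TDZ replicates 1 and 2 (dashed line), as the share of genes called higher (left, red) or lower (right, blue) without replicate 3; positions below -1 or above 2 (0.597% and 1.09% of genes) are not drawn. The higher genes pile up at the control level, and the lower genes spread between both marks around a median of 0.24.

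TDZ is a phenylurea and BAR a purine riboside, and the labels give the same dose and time for both, so that 1 pair of compounds was compared. With all libraries 1152 genes were higher in TDZ than in BAR shoots (4.42% of those tested) and 1037 lower (3.98%), 8.4% in all, and without TDZ replicate 3 the counts were 2257 (8.47%) and 1857 (6.97%). Leaving out BAR replicate 1 gave 52 higher and 146 lower genes, BAR replicate 3 144 and 314, BAR replicate 2 709 and 922, TDZ replicate 1 556 and 433 and TDZ replicate 2 911 and 595. The type-A regulators were higher on TDZ in 8 of 10 cases with all libraries and in 9 without TDZ replicate 3, and 5 of 9 cytokinin oxidases were higher in both fits. ARR6 was at 135, 114 and 1.03 CPM in TDZ and at 7.34, 10.7 and 9.89 CPM in BAR shoots, so the library labelled TDZ replicate 3 was below the BAR libraries. CKX3 was at 0.0583, 0 and 0.161 CPM in BAR shoots, close to its level in control. Of 108 lignin and phenylpropanoid genes 28 were higher and 1 lower on TDZ than on BAR (35 and 2 without TDZ replicate 3), and of 137 defence protein genes 23 and 1 (36 and 2). No Aux/IAA gene was higher and 1 of 33 was lower, and 0 and 2 without TDZ replicate 3. AUX28 (DVH24_021779) was at 67, 84.6 and 1.8 CPM in TDZ, against 193, 108 and 191 CPM in BAR shoots, which did not pass with all libraries (adjusted p = 0.17, and 0.031 without TDZ replicate 3).

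Many of the carbon fixation genes were lower on TDZ than on BAR as well as lower than in control. How this list's calls against BAR change with a library left out or another scaling was not tested. Of the 42 Calvin cycle and photorespiration genes 27 were lower and none higher on TDZ than on BAR, and 29 and 1 without TDZ replicate 3. In 17 of the 42, all 3 TDZ libraries were below the 6 control and BAR libraries, which held for 3.1% of all genes tested (2.36% for all 3 TDZ libraries above the 6). Rubisco accumulation factor 1.2 averaged 17.7 ± 1.66 CPM in TDZ, against 58.6 ± 14.5 CPM in BAR shoots (SD, n = 3 each), a log2 difference of -1.73 (SE 0.23, adjusted p = 0.0018). The Rubisco small subunit averaged 2142 ± 290.0 CPM in TDZ, against 7645 ± 2108 CPM in BAR shoots (log2 difference -1.84, SE 0.41, adjusted p = 0.016). Lipoxygenase 2-1 (DVH24_016189) averaged 1164 ± 234 CPM in TDZ, against 3758 ± 686 CPM in BAR shoots, and the nitrate transporter-family gene NPF6.4 (DVH24_028127) 52.9 ± 20.8 CPM in TDZ, against 209 ± 20.3 CPM in BAR shoots (SD, n = 3 each). The asparaginase match DVH24_012497 averaged 399 ± 156 CPM in TDZ and 8.75 ± 4.77 CPM in BAR shoots (SD, n = 3 each), a log2 difference of 5.51 (SE 0.57, adjusted p = 0.00053). Mandelonitrile lyase 2 (DVH24_032876), which releases cyanide from cyanogenic glucoside products, was at 286, 122 and 267 CPM in TDZ and 0.874, 11.6 and 17.4 CPM in BAR shoots (log2 difference 4.5, SE 1.11, adjusted p = 0.023). Against control, at 118, 37.2 and 39.7 CPM, it did not pass (adjusted p = 0.19).

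**Figure D5:**
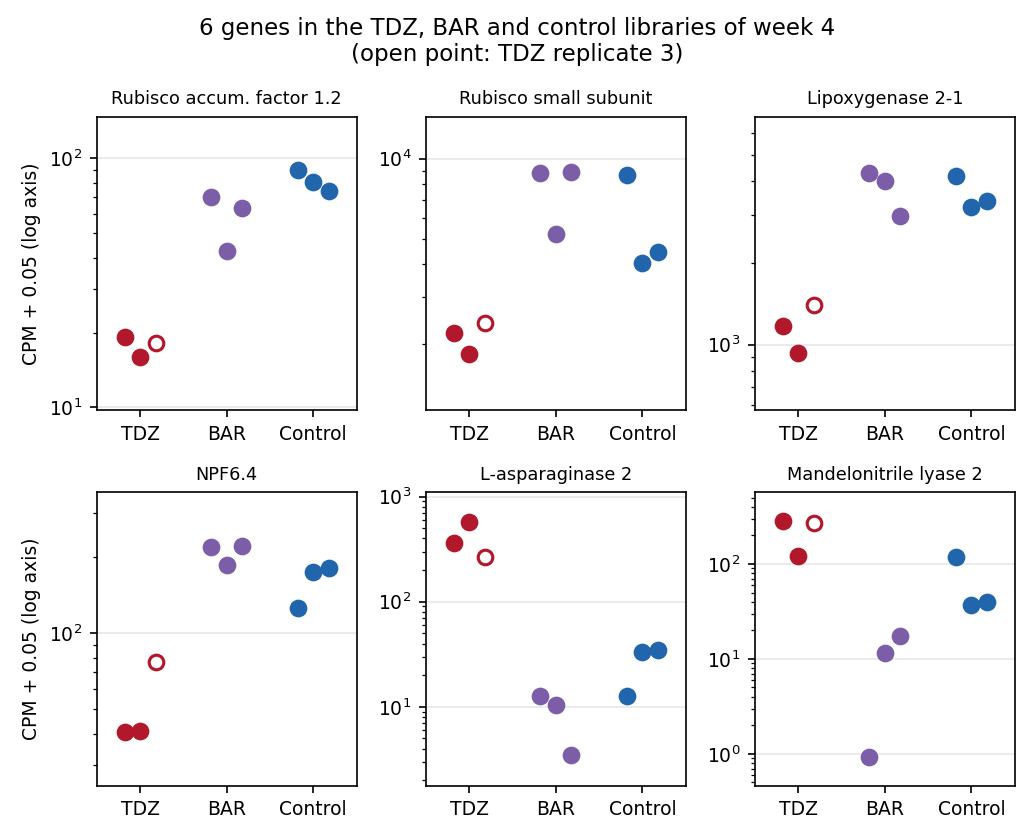
Levels of 6 genes in the TDZ (red), BAR (purple) and control (blue) libraries of week 4, in CPM plus 0.05 on log axes; each point is 1 library and the open point is TDZ replicate 3. All 3 TDZ libraries lie below the 6 others in the first 4 genes and above them in the last 2.

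The TDZ difference at 4 weeks was also set against that at 48 hours, where 1417 genes had a higher difference at 4 weeks (5.44%) and 558 a lower one (2.14%), 7.58% in all, and 4239 (15.9%) and 2878 (10.8%) without TDZ replicate 3. With all libraries this test was unstable: leaving out 1 library at a time gave 0 to 4239 higher and 0 to 2878 lower genes, and the highest pair came from leaving out TDZ replicate 3. A count of 0 in both directions followed from leaving out control replicate 3 of 4 weeks, control replicate 3 of 48 hours or TDZ replicate 2 of 48 hours, each time with 3975 or more higher and 1903 or more lower genes at an unadjusted p under 0.05. Of 76 growth regulators 24 had a higher difference at 4 weeks and 1 a lower one, and 47 and 4 without TDZ replicate 3. Of 56 mitotic genes 18 had a higher difference and none a lower one, and 41 and 0 without TDZ replicate 3. Of the 10 type-A regulators 2 had a higher difference and none a lower one, and 7 and 0 without TDZ replicate 3. Genes higher in both fits at 4 weeks had a median level of 10.6 CPM in TDZ and 1.29 CPM in control at 4 weeks. In TDZ replicate 3 alone it was 1.61 CPM, and in BAR shoots 5.99 CPM. At 48 hours it was 11.7 CPM in TDZ and 10.7 CPM in control. The genes were chosen by their 4 week levels and not by those at 48 hours. The gap at 4 weeks thus follows from the choice, and these medians cannot show which group changed with time.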

How the data were processed

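Messenger RNA of apple shoots was sequenced as 18 libraries in 6 groups of 3. The deposited counts per gene for 42841 genes were made by the authors with CASAVA, HISAT2 2.0.5 and featureCounts 1.5.0-p3, per the submitters' processing notes. Of the build, annotation and strandedness, nothing is given in the sources used here. The labels' protocol text mentions both a non-stranded and a stranded option, so overlapping genes cannot be told apart. The deposited FPKM values, scaled by the authors, served only to pick the most abundant gene of a list. Protein names are best matches in the deposited table, and close paralogs may share reads. No identifier matched the RefSeq table, so no sequence or coordinate is printed.

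Group differences in these counts came from edgeR 4.0.16's quasi-likelihood test after TMM scaling (filterByExpr with a minimum count of 10 and total of 15) in R 4.3.3, 1 coefficient per group, with all 18 libraries and again without TDZ, 4 week replicate 3. Benjamini-Hochberg adjustment ran over all tested genes and calls used an adjusted p under 0.05. Each SE was derived from the test, as the absolute log2 fold change divided by the square root of its F value. It is not a separate estimate. For genes with no control count, folds are bounds against 3 counts over the control group. Alternatives used DESeq2 1.42.0, limma 3.58.1, other scalings, filters, sample sets, a replicate block and each library left out. DESeq2 and limma-voom on the groups alone were chosen after seeing the data. The fits were also run on simulated counts, where only a small set of genes was changed, in the 4 week TDZ libraries. The groups did not differ otherwise. That setting is simpler than these data, so it cannot show how reliable the calls here are.

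The libraries, gene lists and tests were chosen with earlier results of these data known. Named genes were the 10 highest and 10 lowest changes called in both fits and averaging 5 CPM or more in whichever group was higher, 2 called genes of smallest p and the most abundant gene of each list, the 6 genes per direction of smallest p whose groups did not overlap, the 4 highest and 4 lowest in the other comparisons, and tested type-A regulators, cytokinin oxidases and D3 cyclins. Only some of them are printed. Total counts of the 6 libraries limit precision for genes of few counts.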

Additional observations from a re-analysis of the deposited data

Results flagged for a closer look

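Several differences between TDZ and control were not the same at 4 weeks and at 48 hours by the interaction test of edgeR. With all libraries 1417 genes had a higher TDZ difference at 4 weeks and 558 a lower one, counts that ranged down to 0 when 1 library was left out. Of the genes named for this test, 4 had the TDZ level above control at 4 weeks and below it at 48 hours. Their fitted log2 differences rest on a control group at 0 and are no measure of size: 14.34 for lipid-transfer protein 3 (DVH24_014917, adjusted p = 0.025), 14.29 for LTL1 (DVH24_036863, adjusted p = 0.021), 14.39 for pectinesterase 28 (DVH24_036545, adjusted p = 0.028) and 13.62 for knotted-1-like 1 (DVH24_020542, adjusted p = 0.026). The knotted-1-like gene was at 0, 6.66 and 0.513 CPM on TDZ at 48 hours, against 8.19, 22.4 and 32.9 CPM on control. Pectinesterase 28 was at 6.88, 9.58 and 0 CPM in TDZ at 4 weeks and at 0 in the controls.

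The 4 genes with a lower difference at 4 weeks included 3 plastid-encoded ones, whose 4 week controls 2 and 3 stood far above control 1. ATP synthase subunit a (DVH24_033683) was at 0.633, 0.252 and 0.966 CPM in TDZ, against 3.11, 114 and 87.2 CPM in control, with a log2 interaction of -6.98 (adjusted p = 0.022). A second match of this subunit (DVH24_015480) had no count in TDZ at 4 weeks and a fitted value of -9.69, and RNA polymerase subunit beta (DVH24_001610) had -6.66 (adjusted p = 0.024). The chloroplast small heat shock protein (DVH24_024976) was at 0.407, 0.378 and 2.13 CPM in TDZ, against 2.78, 15.6 and 15.3 CPM in control at 4 weeks, and the 48 hour controls had no count (fitted value -10.85, adjusted p = 0.032).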

How the results depend on the processing

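Counts are given as higher and lower, and causes were not tested. TDZ against control gave 1879 and 2692 with limma-voom, where 41.1% of calls were higher against 63.4% in the main fit. The same comparison gave 9287 and 7420 with limma quality weights, 7172 and 1294 with library totals and 908 and 743 with the 4 week libraries only. On the 2 groups alone it gave 0 and 0 with edgeR or limma-voom and 1952 and 1548 with DESeq2. At a fold of at least 2 the main fit had 1526 lower. Leaving out 1 library gave 2324 to 6124 and 1015 to 4770. Without TDZ replicate 3, quality weights gave 9287 and 7351, library totals 9483 and 2358, and leaving out a further library 4416 to 7018 and 2724 to 5280.

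TDZ against BAR gave 2337 higher with DESeq2, 463 and 1258 with limma-voom, 5305 and 5303 with quality weights and 62 and 94 with 4 week libraries only. It gave 590 lower with libraries ending in b summed with their namesakes, and 52 to 2257 and 146 to 1857 with 1 library left out. Without TDZ replicate 3, quality weights gave 5354 and 5108, library totals 1074 lower, and leaving out a further library 1201 to 2068 and 456 to 1722.

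The difference between times gave 2999 and 1242 with DESeq2, 19 and 53 with limma-voom, 7996 and 5742 with quality weights, 2590 and 261 with library totals, 2608 higher with the b libraries summed, and 0 to 4239 and 0 to 2878 with 1 library left out. Without TDZ replicate 3, quality weights gave 8076 and 5690, library totals 6488 and 1193, and leaving out a further library 3064 to 5758 and 1535 to 3820.

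Deviations of same-numbered TDZ and control libraries from their group means correlated with r = 0.297, -0.154 and 0.222. TDZ replicate 3 and control replicate 1 stood apart from their groups, so these values cannot show whether the numbers pair the libraries. A replicate block gave 3963 and 2331 for TDZ against control, 645 and 821 for TDZ against BAR and 546 and 221 for the difference between times. Among values of the printed genes under these alternatives, 1280 kept direction and side of the threshold, 179 lost the call, 30 gained it and 0 changed sign while called. Many of these genes were chosen for passing in both fits, so agreement was in part fixed by the choice. Of the lost calls, 55 came with edgeR and 55 with limma-voom on the 2 groups alone. A further 30 came with limma-voom on all libraries and 19 with the 4 week libraries only.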
